A study of Mus musculus with 6 samples.

Results

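The chemokines and chemokine receptors of the mouse retina were taken as every row of the deposited count table whose gene symbol starts with Ccl, Cxcl, Ccr or Cxcr followed by a digit. This rule, which uses names and no measured value, found 54 of 23420 genes, of which 36 encode ligands and 18 encode receptors. Of these 54 members, 43 had at least 1 count in some library, and 16 had over 10 counts in at least 2 libraries. Retinal mRNA was sequenced from 3 groups with 2 libraries each. The control retinas came from mice without light exposure or drug. The light-exposed retinas were taken 4 days after white light of 10000 lux for 1 h. The third group received the same light together with minocycline, a tetracycline antibiotic, which was injected i.p. at 45 mg/kg on each of 4 days. Per the labels all animals were CD1 mice, whereas the methods of the study name BALB/cJ animals of both sexes, another light intensity and a longer course of injections. The labels give no age or sex, the methods of the study give 1 age range, that of young adults, for all animals, and no vehicle injection is named for the light-exposed or control libraries. The study calls the libraries of a group biological replicates. It does not say how many retinas or animals went into each, so p-values measure the spread between these libraries.

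Chemokines are small secreted proteins that direct the movement of leukocytes and microglia. They bind G protein-coupled receptors on the responding cell, and CC and CXC members are told apart by the spacing of their first cysteines. Inflammatory chemokines are made by stimulated microglia, macrophages, Müller cells and endothelium, and homeostatic chemokines are made without such a stimulus and guide resident and developing cells. In the light-damaged retina, microglia leave the plexiform layers for the outer retina, and chemokines are among the signals studied in that movement.

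Many inflammatory chemokine genes are known to be controlled by NF-kappaB and interferon-responsive factors, so the bases upstream of the start site are shown for 4 members. The receptors Cxcr4 and Ccr1 are shown because they were called higher after light exposure. The ligands Cxcl1 and Cxcl10, which were not called in that comparison, are shown because their windows held the kappaB-type motif. Each sequence is the 220 bases before the RefSeq start site in the build GRCm38.p6, read 5′ to 3′ on the strand of the gene. Capitals mark matches, on either strand and merged where they overlap, to the kappaB-type motif GGNNNTTCC, the interferon-stimulated response element GAAANNGAA, the PU.1 core GAGGAAG or the TATA box TATAAA.
Cxcr4 promoter: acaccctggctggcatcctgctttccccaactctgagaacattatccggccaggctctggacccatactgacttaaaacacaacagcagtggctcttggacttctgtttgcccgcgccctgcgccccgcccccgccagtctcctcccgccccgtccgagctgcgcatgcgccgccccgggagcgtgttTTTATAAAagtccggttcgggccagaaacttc
Ccr1 promoter: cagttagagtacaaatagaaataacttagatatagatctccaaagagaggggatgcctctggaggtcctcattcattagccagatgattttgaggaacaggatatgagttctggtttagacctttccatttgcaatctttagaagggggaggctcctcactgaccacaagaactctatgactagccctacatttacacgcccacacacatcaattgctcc
Cxcl1 promoter: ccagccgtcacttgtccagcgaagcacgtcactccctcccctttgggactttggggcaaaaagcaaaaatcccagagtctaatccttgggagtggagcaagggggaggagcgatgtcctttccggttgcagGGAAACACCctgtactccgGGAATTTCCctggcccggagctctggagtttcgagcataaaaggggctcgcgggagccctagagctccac
Cxcl10 promoter: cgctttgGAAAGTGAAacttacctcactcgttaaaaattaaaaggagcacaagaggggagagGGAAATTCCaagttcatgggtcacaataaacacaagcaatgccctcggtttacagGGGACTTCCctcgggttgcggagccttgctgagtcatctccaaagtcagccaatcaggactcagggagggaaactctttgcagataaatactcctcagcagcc
The Cxcr4 window was chr1:128592300-128592519 on the minus strand and held TATA box motifs, overlapping on both strands, at -32 to -25, where -1 is the base next to the start site. The Ccr1 window, chr9:123968693-123968912 on the minus strand, held none of the 4 motifs. In the Cxcl1 window, chr5:90891025-90891244 on the plus strand, kappaB-type motifs lay at -89 to -81 and, on both strands, at -70 to -62. The Cxcl10 window, chr5:92348890-92349109 on the minus strand, held kappaB-type motifs at -158 to -150 and -103 to -95 and the response element at -213 to -205.

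RefSeq windows of 250 bases before to 50 bases after the start site were at hand for 38 members, 12 of them among the 16 described. A few genes have more than 1 window, among them 4 of these members (Ccr6, Ccl25, Ccl27a and Ccl27b), so a gene was counted as holding a motif where any of its windows did. The kappaB-type motif was held by 14 of the 38 members and by 20.7% of all 27025 genes of the table. Of the 12 described members with a window, Ccl9, Ccl25 and Cxcl1 held it. The response element was held by 8 of the 38, Ccl3 and Cxcl14 among the described members, and by 9.76% of all genes. The PU.1 core was held by 7 of the 38 and by 15.4% of all genes, and the TATA box by 11 of the 38 and by 15.7% of all genes. No window of the 12 described members held the PU.1 core, and the TATA box was in those of Ccl25, Ccl9, Cxcr4 and Cxcr7. These matches describe letters only.

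Total counts ranged from 15205930 to 22856922 per library, and the 54 members together held 578 to 2733 of them, so most of the family was measured at low depth. Levels below are counts as deposited, or CPM, the count scaled to the library size after TMM adjustment. A member without counts could have reached 3 counts by chance, which is 0.131 to 0.214 CPM. This limit covers counting error only. All 10 photoreceptor markers checked had counts in every library, so defining markers of the labelled tissue were present. Their summed level was 89895 and 69769 CPM in the controls, 52812 and 37340 CPM after light exposure and 76793 and 81914 CPM with minocycline, and so was lowest in the libraries in which the family's sum was highest, and the part of this shift in the members' values was not tested. Summed over the 54 members, the level was 55.8 and 40.6 CPM in the controls, 80.7 and 129.5 CPM in the light-exposed libraries, and 77.4 and 58.2 CPM in the libraries with minocycline. The deposited names do not tell the 2 minocycline libraries apart, and they are called A and B here. In bulk tissue, a change in the number of cells of a type and a change in RNA per cell cannot be told apart.

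The members with over 10 counts in at least 2 libraries were 5 of 10 inflammatory CC ligands (Ccl2, Ccl3, Ccl5, Ccl6 and Ccl9), 1 of 6 other CC ligands (Ccl17), 1 of 4 neutrophil-attracting CXC ligands (Cxcl1), none of 3 interferon-inducible CXC ligands, 1 of 2 membrane-bound or mucosal CXC ligands (Cxcl16), 4 of 11 homeostatic ligands (Ccl25, Ccl28, Cxcl12 and Cxcl14), 2 of 11 CC receptors (among them Ccr1) and 2 of 7 CXC receptors (Cxcr4 and Cxcr7). Of these, 8 had over 10 counts in every library. Another 6, among them Cxcr4, Ccl5, Ccl3, Ccl17 and Ccr1, reached over 10 counts in 2 libraries only with the light-exposed libraries counted, so for them the description already rests on the group in which they were high. Per kilobase of merged exons, Cxcl14 had the highest mean level of the 16 in the controls, 8.18 CPM per kb, followed by Cxcl16 with 3.01, Cxcl12 with 1.11 and Ccl9 with 1.02. Ccr1 was among the lowest, with 0.0502 CPM per kb.

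**Figure D1:**
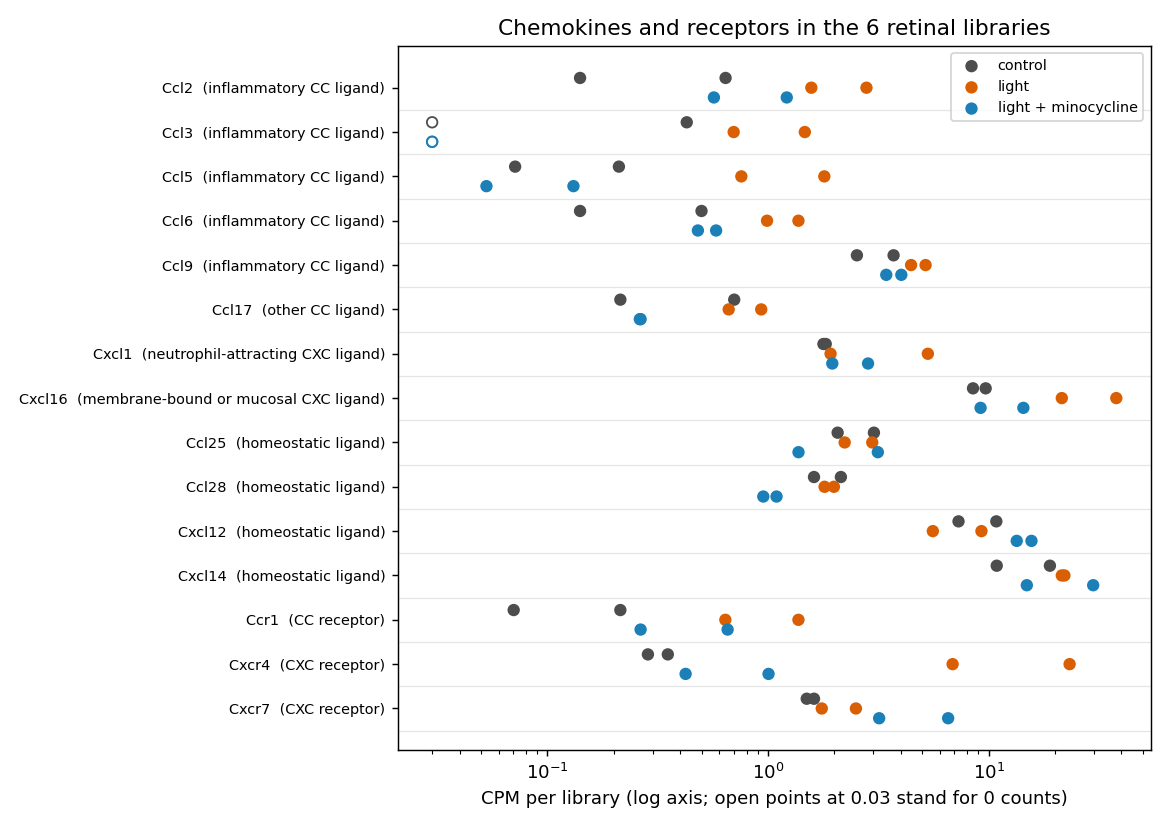
Level of 15 members in each of the 6 libraries, in CPM on a log axis, with 1 point for each library coloured by group and open points for 0 counts. For Cxcr4, the light-exposed points at 6.87 and 23.3 CPM lie apart from all 4 others, and for Ccl3 both minocycline libraries are at 0 counts.

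The first comparison asks which members changed 4 days after light exposure. Of the 16 members tested among 14349 genes, 5 rose by the call used here, which joins an adjusted p below 0.05 with a log2 fold change of 2 or more. The p came from the quasi-likelihood F test of edgeR, adjusted over all tested genes by the method of Benjamini and Hochberg. Among the 5 were the receptors Cxcr4 and Ccr1 and the ligands Ccl2 and Ccl5. Across all tested genes 2.89% were called higher. By adjusted p alone, 6 members passed, against 7.52% of all genes, and 8 had an unadjusted p under 0.05 with a higher level, against 16.5%. Both light-exposed libraries lay above both controls for 12 of the 16, against 30.1% of all genes. That count is in part set by the rule on counts: the 6 members that met it only with the light-exposed libraries gave 5 of the 12 and 4 of the 5 calls, and of the other 10 members 7 lay above both controls and 1, Ccl2, was called. No member was called lower, against 0.0279% of all genes, 0 had an unadjusted p under 0.05 with a lower level, against 12.4%, and for 0 did both light-exposed libraries lie below both controls, against 30.8%. DESeq2 called 3 members higher, Cxcr4 and Ccl2 among them, against 3.08% of the genes it tested, and 0 lower, against 0.0133%. The median log2 fold change of the 16 was 1.37, with 15 above zero, and that of all tested genes was 0.0025.

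Cxcr4, the receptor of Cxcl12 on leukocytes, microglia and developing neurons, changed most. It had 4 and 5 counts in the controls, 118 and 492 after light exposure, and 23 and 8 with minocycline. Both light-exposed libraries lay above the other 4, and the second was 3.39 times the first in CPM. The log2 fold change against control was 5.55 ± 0.81 (SE, n = 2 each), with an adjusted p of 0.01813 by edgeR. The gene lies at chr1:128588199-128592293 on the minus strand (GRCm38). Its receptor relative Cxcr7, now named Ackr3, binds the same ligand and takes it up without G protein signalling. Cxcr7 had 21 and 23 counts in the controls and 43 and 37 after light exposure. Its log2 fold change of 0.45 ± 0.41 (SE) gave an adjusted p of 0.5046 by edgeR.

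Ccr1 binds several inflammatory CC ligands, Ccl3 and Ccl5 among them, and is found on monocytes, macrophages and microglia. Ccr1 had 3 and 1 counts in the controls, 11 and 29 after light exposure, and 15 and 5 with minocycline. The light-exposed counts were above both controls but overlapped those with minocycline. Its log2 fold change against control was 2.80 ± 0.74 (SE), with an adjusted p of 0.03562 by edgeR. The gene lies in the receptor cluster of chromosome 9, at chr9:123962124-123968692.

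Ccl2 is a chief attractant of monocytes and was also followed by PCR in the study. Its counts were 9 and 2 in the controls, 27 and 59 after light exposure, and 13 and 23 with minocycline. The light-exposed and control libraries did not overlap. The minocycline libraries lay below both light-exposed libraries, and in CPM minocycline A, at 0.568, was below control 1, at 0.642. The log2 fold change against control was 2.48 ± 0.62 (SE), with an adjusted p of 0.03151 by edgeR. Ccl5, which attracts T cells and monocytes, had 1 and 3 counts in the controls, 13 and 38 after light exposure, and 3 and 1 with minocycline. Its counts without light and with minocycline covered the same range, below both light-exposed libraries. The log2 fold change against control was 3.14 ± 0.74 (SE), with an adjusted p of 0.02487 by edgeR. Ccl2 lies at chr11:82035571-82037453 and Ccl5 at chr11:83525778-83530518, in the ligand cluster of chromosome 11 (chr11:82035571-83664683) that holds 11 of the 54 members and 5 of the 16 described.

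The calls depended on each of the 4 libraries. Without control 1, edgeR called 0 members, against 0.0202% of all genes, and without control 2 it called 0, against 0.114%, while 13 and 6 of the 23 members tested had an unadjusted p under 0.05 with a higher level, against 14.7% and 11.7% of all genes. Without light-exposed replicate 2 only Cxcr4 was called, against 1.70% of all genes, and without light-exposed replicate 1 the count was 9, against 5.06%. In each of these fits 1 group is a single library, which is assumed to vary like the libraries of the other group. The log2 fold changes stayed above zero in each case, between 4.40 and 6.17 for Cxcr4, 1.77 and 3.90 for Ccl2, 2.36 and 4.05 for Ccl5, and 2.12 and 3.73 for Ccr1.

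Cxcl16, made as a membrane-bound protein that is shed as a soluble attractant, passed the adjusted p but not the fold cutoff. Its counts were 136 and 121 in the controls, 369 and 801 after light exposure, and 329 and 174 with minocycline. Both light-exposed libraries were highest in counts and in CPM. The log2 fold change against control was 1.72 ± 0.28 (SE), with an adjusted p of 0.0122 by edgeR, the lowest of the 16. Without light-exposed replicate 1 it was 2.07 and was called. Of the 50-base words of its exons, 16.9% are shared with the overlapping gene Zmynd15 on the opposite strand, and whether the counting used the strand is not given in the sources used here.

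Among the other inflammatory CC ligands, Ccl3, Ccl6 and Ccl9 all bind Ccr1. Ccl6 had 7 and 2 counts in the controls and 17 and 29 after light exposure, with a log2 fold change of 1.88 ± 0.61 (SE) and an adjusted p of 0.0702 by edgeR. It was 3.01 without control 1 and 1.24 without control 2. Ccl3 had 6 and 0 counts in the controls and 12 and 31 after light exposure, with a log2 fold change of 2.34 ± 0.89 (SE) and an adjusted p of 0.1202 by edgeR. The Ccl3 value turned on the control library without counts, and it was 1.35 without control 2. Ccl9 had 52 and 36 counts in the controls and 89 and 94 after light exposure, with a log2 fold change of 0.63 ± 0.35 (SE). For these 3 ligands the light-exposed libraries lay above the controls, and none passed the test.

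Cxcl1, an attractant of neutrophils, had 25 and 26 counts in the controls and 33 and 112 after light exposure. One light-exposed library stood near the controls, at 1.92 CPM against 1.78 and 1.83, and the other at 5.31 CPM. The log2 fold change of 1.02 ± 0.49 (SE) had an adjusted p of 0.2004 by edgeR and was 0.10 without light-exposed replicate 2. Cxcl14, an attractant made by many epithelia and by neural tissue, had 266 and 155 counts in the controls and 369 and 466 after light exposure, a log2 fold change of 0.56 ± 0.25 (SE) with an adjusted p of 0.1793 by edgeR. It ranged from 0.20 without control 2 to 1.00 without control 1. Cxcl12, the ligand of Cxcr4 and Cxcr7, had 152 and 104 counts in the controls and 96 and 196 after light exposure. The groups overlapped in CPM, and its log2 fold change was -0.27 ± 0.32 (SE), the only one of the 16 below zero. The homeostatic ligands Ccl25 and Ccl28 had log2 fold changes of 0.03 each, and Ccl17, which attracts T cells, had 0.78 ± 0.62 (SE), with 0.17 without control 1 and 1.86 without control 2. All 3 overlapped between the groups. Of the 4 described homeostatic ligands 0 were called higher by edgeR, against 2.89% of all genes, or by DESeq2, against 3.08%, and 0 had an unadjusted p under 0.05 with a higher level, against 16.5%. With 4 genes these counts are near the background, and whether the response differs between the classes was not tested.

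**Figure D2:**
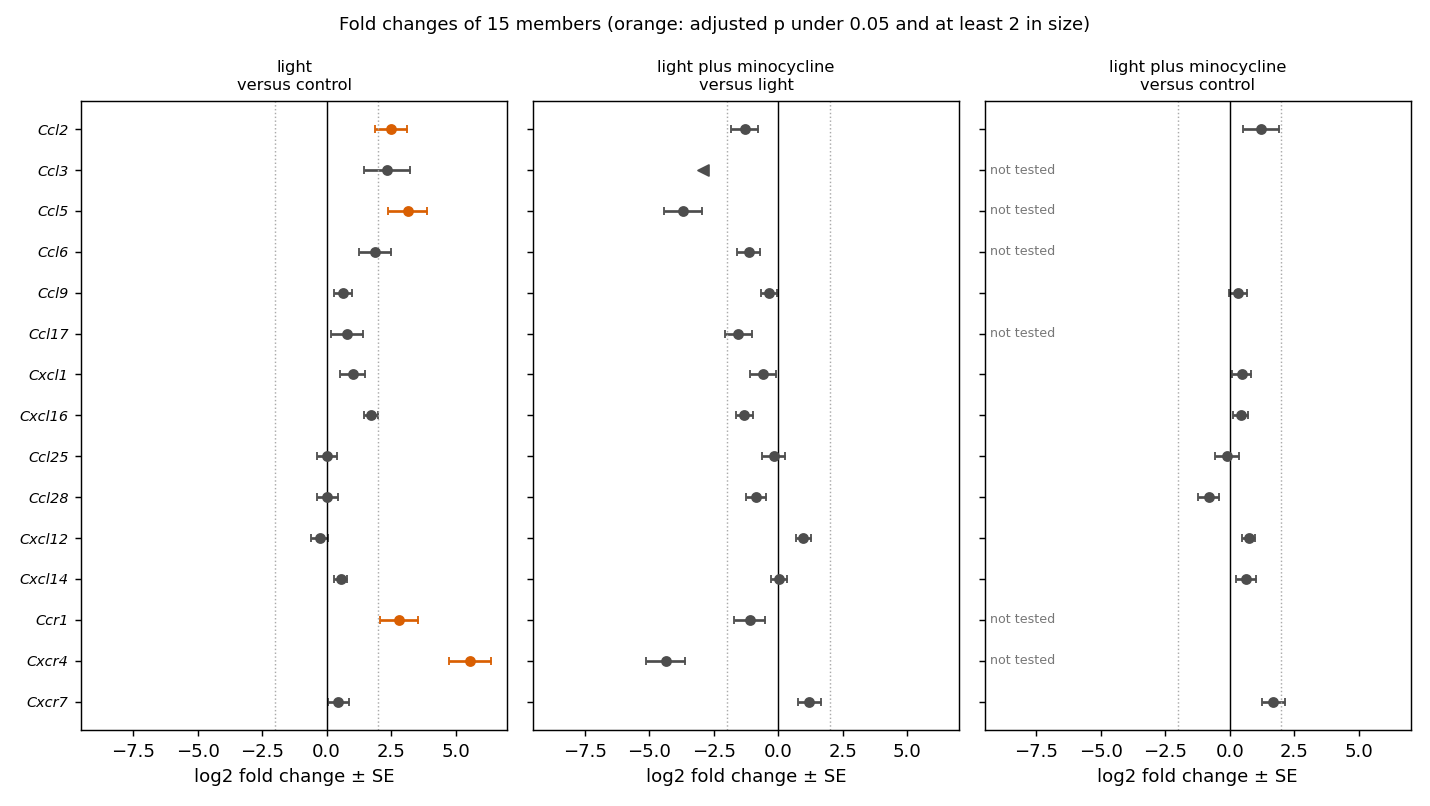
Log2 fold change with its standard error for 15 members in the 3 comparisons, with n = 2 libraries a group. Orange points passed an adjusted p under 0.05 and the cutoff of 2 marked by dotted lines. The triangle for Ccl3 is the bound of at least 7.48-fold lower than the light-exposed mean. In the left panel 4 points are orange, and in the other panels none is.

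Several members with fewer counts had their highest count in light-exposed replicate 2, at depths that allow little precision. Ccr2, the receptor of Ccl2 on circulating monocytes, had 0 counts in both controls, 10 and 12 in the light-exposed libraries and 1 and 0 with minocycline. Against the limit of 3 counts per library, its mean after light exposure was at least 2.71-fold higher than in the controls. Cxcl10, an interferon-inducible attractant of T cells, had 6 and 1 counts in the controls, 10 and 36 after light exposure and 1 and 0 with minocycline. Cxcl5, which attracts neutrophils, had 3 and 1, 10 and 21, and 1 and 0 counts in the same order. Ccl4, a close relative of Ccl3, had 2 and 0, 5 and 19, and 1 and 0 counts, and Ccl12 had 3 and 1, 6 and 20, and 3 and 5. Ccl7 had 3 and 0 counts in the controls, 3 and 12 after light exposure and 0 in both minocycline libraries. Cxcl13, an attractant of B cells, was highest in minocycline A instead, with 2 and 3, 5 and 10, and 13 and 3 counts in the order of the groups. Cxcl2 had 4 and 4, 6 and 13, and 2 and 3, and Ccl8 had 5 counts in light-exposed replicate 2 and 0 elsewhere. None of these passed the edgeR filter for light exposure against control. When every gene with at least 1 count was tested instead, 7 members were called higher, the same 5 with Cxcl5 and Ccr2, against 2.64% of all genes.

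For several ligands the usual receptor was barely measured or had no counts. Cxcr6, the receptor of Cxcl16, and Ccr4, the receptor of Ccl17, had 0 counts in every library. Cxcr2, a receptor of Cxcl1, had 0 and 0, 0 and 1, and 2 and 0 counts, and Cxcr1 had 0 throughout. Ccr9, the receptor of Ccl25, had 1 count in light-exposed replicate 2 and 1 in minocycline B. Ccr10, a receptor of Ccl28, had 6 and 3, 4 and 2, and 5 and 3 counts. Ccr3 had at most 2 counts in a library and Ccr7 at most 1. The 13 further members with counts, Ccl1, Ccl11, Ccl20, Ccl22, Ccl24, Ccl27a, Ccr1l1, Ccr6, Cxcl9, Cxcl11, Cxcl17, Cxcr3 and Cxcr5, had at most 8 counts in a library. The other members without any count were Ccr8, Ccl19, Ccl21a, Ccl21b, Ccl21c, Ccl26, Ccl27b and Cxcl3. For Ccr8, Ccl26 and Cxcl3 a count of 0 allows up to 3 counts in each library, so low levels were not detectable at this depth. That limit does not hold for the other 5, since reads from these genes may not be assignable. Of the 50-base words of their transcripts, 52.0% for Ccl19, 71.6% for Ccl21a, 98.1% for Ccl27b and 100% for Ccl21b are shared with other genes, and Ccl21c was not matched to the annotation. Among the members with counts, 45.0% of the words of Ccl27a, 40.4% of those of Cxcl11 and 20.1% of those of Ccr9 are shared, so their counts are uncertain too.

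The second comparison asks how the members differed when minocycline was added to light exposure. The same light-exposed libraries serve both comparisons, so the values are given side by side and are not independent. The filter passed 20 members among 14750 genes, the 16 described with Cxcl5, Cxcl10, Cxcl13 and Ccr2, and several of them passed only through the light-exposed libraries in which they were high. No member was called by edgeR, lower or higher, against 0.0339% and 0.0136% of all genes. The smallest adjusted p of a member was 0.06978. At an unadjusted p under 0.05, 11 members were lower with minocycline, against 12.1% of all genes, and 2 were higher, against 9.04%. Both minocycline libraries lay below both light-exposed libraries for 13 of the 20, against 28.1% of all genes, and above them for 2, against 26.8%. DESeq2 called 5 members lower, Cxcr4, Ccl5, Ccl3 and Cxcl10 among them, against 1.96% of the genes it tested, and 0 higher, against 0.709%. Without light-exposed replicate 1 edgeR also called these 5, against 2.67% of all genes called lower. The median log2 fold change of the 20 was -1.22, and that of all tested genes was 0.0062.

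Of the 5 members called higher after light exposure, 4 had both minocycline libraries below both light-exposed libraries, against 91.3% of the 415 genes so called. These genes were chosen for high values in the same light-exposed libraries. Cxcr4 had a log2 fold change of -4.36 ± 0.75 (SE) with an adjusted p of 0.07086 by edgeR, and a mean of 0.714 ± 0.412 CPM (SD, n = 2) with minocycline against 15.1 ± 11.6 CPM (SD, n = 2) without. Ccl5 had -3.67 ± 0.73 (SE) with an adjusted p of 0.07086 by edgeR. For Ccl2, with 0.568 and 1.22 CPM against 1.57 and 2.80 CPM, the log2 fold change was -1.29 ± 0.53 (SE) with an adjusted p of 0.2185 by edgeR. Ccr1 was the exception, since minocycline A, at 0.656 CPM, was above light-exposed replicate 1, at 0.641 CPM, and its log2 fold change was -1.10 ± 0.61 (SE). Leaving out 1 library, the values ranged from -5.10 to -3.24 for Cxcr4, from -4.42 to -2.92 for Ccl5, from -1.94 to -0.81 for Ccl2 and from -1.88 to -0.45 for Ccr1. For Cxcr4 and Ccl5 the value nearest to zero was the one without light-exposed replicate 2, as it was for Ccr1.

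Ccl3 had 12 and 31 counts in the light-exposed libraries and 0 in both minocycline libraries. Against the limit of 3 counts per library, it was at least 7.48-fold lower with minocycline than the light-exposed mean. This bound leaves out the spread of the light-exposed libraries, which had 0.699 and 1.47 CPM. Its adjusted p was 0.06978 by edgeR, and DESeq2 called it. Cxcl10 and Cxcl5 each had 1 count over both minocycline libraries. The ratio of summed depth-adjusted counts of light-exposed to minocycline libraries was 50.2 for Cxcl10, with a 95% counting interval of 8.57 to 2026, and 33.8 for Cxcl5, with an interval of 5.64 to 1379. For Ccr2, also with 1 count, the ratio was 24.0, with an interval of 3.88 to 991. These intervals cover counting error and not the spread between retinas.

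Cxcl16 had 14.4 and 9.20 CPM with minocycline against 21.5 and 38.0 CPM without, a log2 fold change of -1.32 ± 0.33 (SE) with an adjusted p of 0.1049 by edgeR. Ccl6 had 11 counts in each minocycline library and a log2 fold change of -1.15 ± 0.46 (SE). Ccl17 had 6 and 5 counts with minocycline against 16 and 14 without, a log2 fold change of -1.56 ± 0.52 (SE) with an adjusted p of 0.1556 by edgeR. Ccl28 had 25 and 18 counts against 31 and 42, and a log2 fold change of -0.88 ± 0.39 (SE). Ccl9 had 4.02 and 3.44 CPM against 5.18 and 4.45 CPM, and a log2 fold change of -0.36 ± 0.31 (SE). In each of these 5 the minocycline libraries lay below the light-exposed ones without passing the test. Cxcl1, Cxcl13, Cxcl14 and Ccl25 overlapped between the groups.

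Cxcr7 and its ligand Cxcl12 went the other way. Cxcr7 had 73 and 124 counts with minocycline against 43 and 37 after light exposure alone and 21 and 23 in the controls. In CPM these are 3.19 and 6.56 against 2.50 and 1.75, and both minocycline libraries were above all others. The log2 fold change was 1.21 ± 0.46 (SE) against light exposure, with an adjusted p of 0.1926 by edgeR, and 1.68 ± 0.44 (SE) against control, with an adjusted p of 0.2873 by edgeR. Cxcl12 had 13.4 and 15.7 CPM with minocycline, 5.59 and 9.29 CPM after light exposure and 10.8 and 7.31 CPM in the controls, so both minocycline libraries were again highest. Its log2 fold change was 0.97 ± 0.29 (SE) against light exposure, with an adjusted p of 0.1279 by edgeR, and 0.72 ± 0.26 (SE) against control, with an adjusted p of 0.5542 by edgeR. Neither gene was called in the full comparison. Without minocycline A, Cxcr7 had a log2 fold change of 2.11 against control and passed the call, and without minocycline B the value was 1.03 and did not. That call sets minocycline B alone against the controls, which supply all of the spread.

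Several markers of tissue around the neural retina were also highest in the minocycline libraries. The summed level of the 8 stroma markers was 45.7 and 157.5 CPM there, against 15.8 to 20.9 CPM in the 4 other libraries, and 7 of 8 or all 8 had counts in each library. Against light exposure edgeR called 0 of them, where 0.0136% of all genes were called higher. DESeq2 called 5 higher, where it called 0.709% of the genes it tested. The 9 markers of pericytes and smooth muscle summed to 106.2 and 356.6 CPM, against 36.7 to 62.6 CPM. The contractile genes Acta2, Myh11, Tagln and Cnn1 had log2 fold changes of 3.62 to 4.98 against light exposure, whereas the pericyte markers Pdgfrb and Rgs5 had -0.12 and -0.01, Abcc9 had -0.25 and Cspg4 had -2.66. None of these passed the call by edgeR. Against light exposure, DESeq2 called 4 genes of the list higher and 1 lower, where the shares of all genes were 0.709% and 1.96%. The 10 markers of corneal epithelium summed to 433.4 and 481.9 CPM, against 204.2 to 336.4 CPM. Pax6, which the neural retina also expresses, supplied 185.1 to 319.5 CPM of each sum, and the other 9 genes summed to 206.8 and 296.8 CPM with minocycline against 2.46 to 16.8 CPM. Dsp and Calml3 of that list were called higher with minocycline in both comparisons by edgeR. The shares of all genes so called were 0.0136% against light exposure and 0.134% against control. DESeq2 called 8 higher against light exposure and 7 against control, where the shares of all genes were 0.709% and 0.645%. For the retinal pigment epithelium the sum was 410.8 and 1528 CPM, against 154.6 to 419.4 CPM, with an overlap between minocycline A and control 2. The 4 pigment genes Tyr, Dct, Tyrp1 and Pmel carried that sum, with log2 fold changes of 3.97 to 4.93 against control, while Rpe65, Rgr, Ttr, Lrat and Rdh5 had -0.91 to -0.39. By edgeR none of the 9 passed the call. At an unadjusted p under 0.05, 4 were higher against light exposure and 1 against control, where the shares of all genes were 9.04% and 5.39%. DESeq2 called 4 and 1 higher, where the shares were 0.709% and 0.645%. The endothelial sum was 223.8 and 168.2 CPM, within the 135.2 to 289.4 CPM of the others. Kdr made up 111.6 to 253.0 CPM of it, and the other 7 genes summed to 35.3 and 38.2 CPM with minocycline, against 29.2 and 23.5 CPM in the controls and 29.4 and 36.4 CPM after light exposure. Against control the 8 genes had log2 fold changes of 0.28 to 1.48 with minocycline. By edgeR 2 of them had an unadjusted p under 0.05 and 0 were called, where the shares of all genes higher were 5.39% and 0.134%. Emcn had 1.57 and 1.32 CPM with minocycline, against 0.349 to 0.663 CPM in the 4 other libraries. Stroma, smooth muscle and endothelium are known to make Cxcl12 and Cxcr7, and the part of these markers in the values of both genes was not tested.

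**Figure D3:**
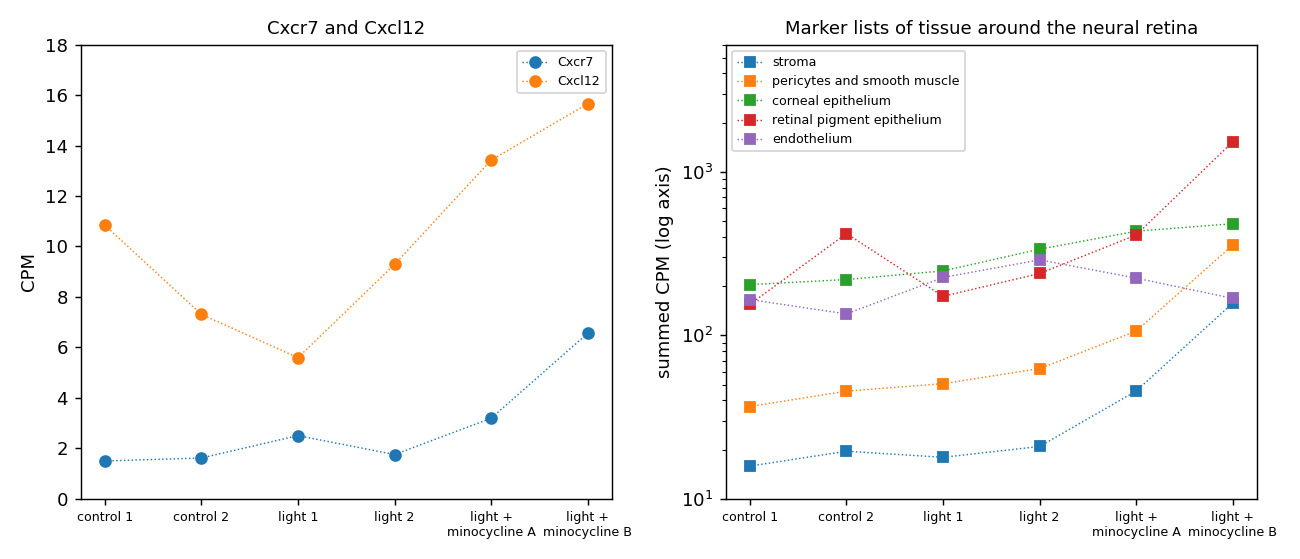
Cxcr7 and Cxcl12 in CPM on a linear axis (left) and the summed CPM of 5 marker lists on a log axis (right) in each of the 6 libraries, with dotted lines that only guide the eye. Cxcr7, Cxcl12 and the stroma, smooth muscle and corneal sums are highest in the 2 libraries with minocycline, and Pax6 makes up most of the corneal sum in the 4 others.

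The third comparison set light exposure with minocycline against control. Only 9 members passed the filter among 14181 genes, and Cxcr4, Ccl5, Ccl6, Ccl3, Ccl17 and Ccr1 were among the 7 of the 16 that did not. No member was called higher by edgeR, against 0.134% of all genes, or lower, against 0%. At an unadjusted p under 0.05, 2 members were higher, Cxcr7 and Cxcl12, against 5.39% of all genes, and 0 were lower, against 1.62%. DESeq2 called 0 members higher, against 0.645% of the genes it tested, and 0 lower, against 0.00639%. Both minocycline libraries lay above both controls for 3 members, Cxcr7, Cxcl12 and Cxcl1, against 15.5% of all genes, and below them for Ccl28 alone, against 24.5%. The median log2 fold change of the 9 was 0.46, and that of all tested genes was 0.021. The members that were not tested are given by their levels alone. Cxcr4 had 0.714 ± 0.412 CPM (SD, n = 2) with minocycline and 0.318 ± 0.047 CPM (SD, n = 2) in the controls, and Ccl5 had 0.0920 ± 0.0554 and 0.141 ± 0.0986 CPM. Ccr1 had 0.656 and 0.264 CPM with minocycline and 0.214 and 0.0703 CPM in the controls, and the ratio of its summed depth-adjusted counts was 3.38, with a 95% counting interval of 1.13 to 13.6. Cxcr4 and Ccr1 had both minocycline libraries above both controls, and Ccl3, Ccl5, Ccl6 and Ccl17 overlapped. With 2 libraries in each group, an exact permutation test of a single gene could not give a two-sided p under 0.333.

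Summed by role, the 7 CXC receptors had 1.78 and 1.97 CPM in the controls, 9.49 and 25.1 CPM after light exposure and 4.29 and 6.98 CPM with minocycline. Cxcr4 made up most of that sum in the light-exposed libraries, with 6.87 and 23.3 CPM, and Cxcr7 in the minocycline libraries, with 3.19 and 6.56 CPM. The 10 inflammatory CC ligands had 5.92 and 3.09, 10.1 and 14.6, and 5.42 and 5.61 CPM in the same order, with both light-exposed libraries above all 4 others. The 11 homeostatic ligands had 34.3 and 23.1, 32.4 and 36.4, and 48.2 and 33.3 CPM, with overlap between light exposure and both other groups. Light-exposed replicate 2 was above replicate 1 in CPM for 12 of the 16 described members, by 2.38 times for Ccl5, 2.15 for Ccr1 and 1.78 for Ccl2.

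**Figure D4:**
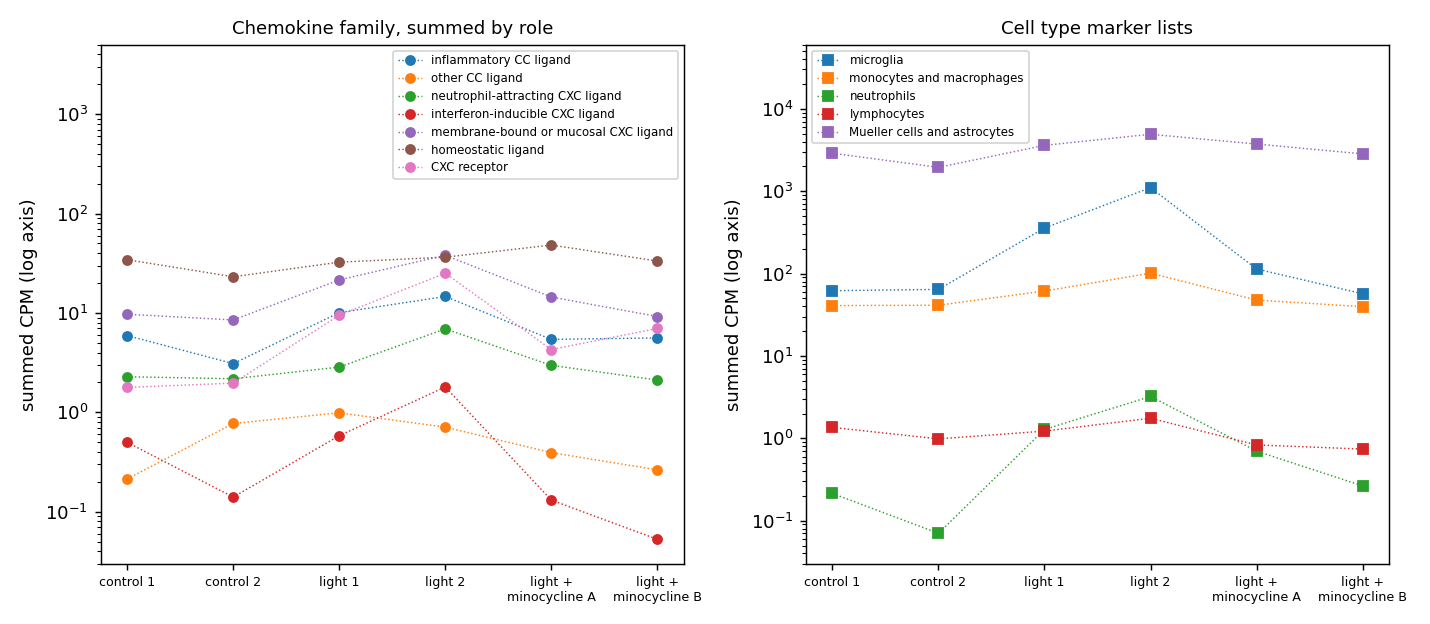
Summed CPM on log axes in each library for 7 role classes of the family (left) and for 5 lists of cell type markers (right), with dotted lines that only guide the eye. The CXC receptors and the microglia markers have their highest values in light-exposed replicate 2, 25.1 CPM for the CXC receptors and 1103 CPM for microglia.

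Markers of microglia stood highest in the same libraries. Their summed level over 12 genes was 61.9 and 64.2 CPM in the controls, 356.8 and 1103 CPM after light exposure, and 113.5 and 56.9 CPM with minocycline, and all 12 had counts in every library. By the same call, 4 of the 12 rose after light exposure, Tmem119, Sall1, Aif1 and P2ry13, against 2.89% of all genes. At an unadjusted p under 0.05, 11 of the 12 were higher by edgeR, against 16.5%, and DESeq2 called 10 higher, against 3.08%. With minocycline against light exposure edgeR called 0 of the 12 lower, against 0.0339% of all genes, with 10 lower at an unadjusted p under 0.05, against 12.1%, and DESeq2 called 8 lower, against 1.96%. The 12 markers of monocytes and macrophages summed to 61.3 and 101.1 CPM after light exposure, against 39.6 to 47.6 CPM in the other libraries. Fn1, which other cells make too, gave 42.5 and 65.4 CPM of the light-exposed sums. Of the 5 genes tested edgeR called 0, where 2.89% of all genes were called higher. At an unadjusted p under 0.05, 2 were higher, against 16.5%, and DESeq2 called 2 higher, against 3.08%. Both light-exposed libraries lay above both controls for 7 of the 12, against 30.1% of all tested genes, and the other 5 overlapped. Ms4a7 had 2.21 and 13.6 CPM after light exposure and 0 counts in the controls. The 8 neutrophil markers summed to 1.28 and 3.22 CPM after light exposure, against 0.0703 to 0.700 CPM elsewhere, with 4 of the 8 at 0 in each light-exposed library and none passing the edgeR filter. Mmp8, with 8 and 39 counts after light exposure and 0 elsewhere, and S100a8 gave most of that sum, whereas S100a9 was highest in minocycline A. DESeq2 called 1 of the 8 higher after light exposure, where it called 3.08% of all genes. It called 1 lower with minocycline against light exposure, where it called 1.96%. The 11 lymphocyte markers were at 0.740 to 1.75 CPM in all libraries, with 4 to 9 of them at 0. The 8 markers of Müller cells and astrocytes summed to 3596 and 4898 CPM after light exposure, against 1943 to 3729 CPM elsewhere, and overlapped with minocycline A. Without Glul, the most abundant of them, the other 7 summed to 2179 and 3536 CPM after light exposure, against 1008 to 1988 CPM elsewhere, with no overlap. That gap rests on Apoe, with 607.6 and 1501 CPM after light exposure and 387.7 CPM in minocycline A. With Apoe also left out, minocycline A was not below light-exposed replicate 1. Gfap and Apoe of this list rose after light exposure by the call, against 2.89% of all genes. At an unadjusted p under 0.05, 7 of the 8 were higher by edgeR, against 16.5%, and DESeq2 called 1 higher, against 3.08%. The part of any of these cells in the values of the chemokines and receptors was not tested.

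Genes related to the family by function were read from 3 further lists. Of relatives with other names, 8 of 14 passed the filter, and 2 rose after light exposure by the call, against 2.89% of all genes. They were Cx3cr1, the fractalkine receptor of microglia, and Cmklr1, the chemerin receptor, with log2 fold changes of 3.82 ± 0.60 and 3.26 ± 0.57 (SE). Cmklr1, with 4 and 6 counts in the controls and 36 and 100 after light exposure, passed the filter only through the light-exposed libraries. Cx3cr1 had 2.93 and 2.11 CPM in the controls, 19.3 and 51.1 CPM after light exposure and 4.24 and 1.69 CPM with minocycline. Its ligand Cx3cl1, made by neurons, had 29.8 and 16.6, 28.0 and 24.4, and 47.7 and 18.9 CPM in the same order, which overlapped between all groups.

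Of the genes that act downstream of chemokine receptors, 34 of 35 passed the filter, and 11 rose after light exposure, against 2.89% of all genes, and 0 fell, against 0.0279%, with 1 lower at an unadjusted p under 0.05, against 12.4%. They included Itgb2, the beta chain of leukocyte integrins, with a log2 fold change of 4.86, Rac2, a GTPase of blood cells, with 4.77, the exchange factors Vav1, with 4.33, and Dock2, with 4.15, and the kinase subunit Pik3cg, with 3.28. DESeq2 also called 11 higher and 0 lower, against 3.08% and 0.0133% of the genes it tested. Of the genes that induce chemokines, 24 of 30 passed the filter, and 7 rose and 0 fell by the call, against the same shares. DESeq2 also called 7 higher and 0 lower, against 3.08% and 0.0133%. The interferon regulatory factor Irf3 was lower by adjusted p (0.01522 by edgeR), but its log2 fold change of -0.74 missed the fold cutoff. The 7 were Tnfrsf1b, a receptor of tumor necrosis factor, with 4.91, the receptor of bacterial lipopolysaccharide Tlr4, with 3.64, the macrophage factor Irf8, with 3.39, Tnfrsf1a, with 2.37, the NF-kappaB subunit Nfkb2, with 2.34, the interferon receptor Ifnar2, with 2.20, and Tlr2, with 2.19. In all 3 lists no gene was called by edgeR with minocycline against light exposure. At an unadjusted p under 0.05, 4 of the relatives, 19 of the signalling genes and 15 of the induction genes were lower with minocycline, against 12.1% of all genes, and 0, 3 and 1 were higher, against 9.04%. DESeq2 called 2, 12 and 2 lower, against 1.96% of the genes it tested, and 0 higher, against 0.709%. The median log2 fold changes of the 3 lists in that comparison were -0.53, -1.02 and -0.80, and with minocycline against control they were 0.19, 0.22 and 0.23.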

How the data were processed

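Stranded mRNA libraries were read as single 50-base reads, which the authors aligned with STAR to mm10 and assigned to genes in RNA Express. The deposited values are raw counts per gene, whole numbers without scaling, although the data statement calls them normalized, and the annotation, versions and use of the strand are not given in the sources used here. All value columns were used (0 left out). Each pair of groups was fitted on its own in edgeR 4.0.16 (R 4.3.3) after filterByExpr and TMM scaling, with robust quasi-likelihood F tests and p-values adjusted by Benjamini-Hochberg over every tested gene. Calls combined adjusted p below 0.05 with the fold cutoff of the study, 2 or more on the log2 scale in either direction. Alternatives were DESeq2 1.42.0, other scalings and filters, 1 fit of all 6 libraries, other cutoffs, the replicate block and leaving out single libraries. The script was tested on simulated data. Members and gene lists were chosen with earlier results of these data known. Members with over 10 counts in at least 2 libraries were named, except 1 that is not reported here, others by their counts, and list genes where called. Replicates differed beyond sampling noise (chi-square per degree of freedom of 28.7 to 32.2). Of the members, 52 matched the GENCODE annotation of GRCm38 by symbol, 1 by synonym and 1 not at all, and exons were merged over transcripts.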

Additional observations from a re-analysis of the deposited data

How the results depend on the processing

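For light exposure against control, the 5 calls became 3 with DESeq2 (3.08% of all genes called higher), 3 with all 6 libraries in one fit (2.90%; Cxcr4 and Ccl5 kept, Ccr2 added) and 0 with at least 10 counts required in every library (1.07%), which left 8 of the 54 members to test and removed the 5 called ones. Leaving out 1 library gave 0 to 9 calls. For minocycline against light exposure, the 0 calls became 5 lower with DESeq2, 6 without a filter and 5 with all 6 libraries in one fit, while the share of all genes called lower rose from 0.0339% to 1.96%, 1.13% and 1.48%, and leaving out 1 library gave 0 to 5. For minocycline against control, leaving out 1 library gave 0 to 1, the 1 being Cxcr7 without minocycline A, where 1.91% of all genes were called higher, against 0.134% with all libraries. Leaving out 1 library moved 36 of 162 single log2 fold changes by over 1.5-fold. The causes were not tested.

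With the replicate block, 6 members were called for light exposure against control, Ccl3 in addition, against 3.30% of all genes called higher. The sources used here do not say what same-numbered libraries share beyond the number. Over genes, the differences between replicates 1 and 2 were uncorrelated between the control and light-exposed groups (Pearson r = -0.0075 over 14349 genes). Whether same-numbered libraries share a factor was not tested further. For both minocycline comparisons no paired fit was made, because the deposited columns do not tell replicates 1 and 2 of the minocycline group apart.

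Of 491 values of single members under alternatives, 440 kept direction and call, 18 gained a call, 19 lost one and 14 changed sign. Leaving out 1 library, the range for light exposure was -0.17 to 0.23 for Ccl28, -0.69 to 0.042 for Cxcl12 and -0.22 to 0.33 for Ccl25. For minocycline against light exposure it was -0.51 to 0.45 for Cxcl14, -1.14 to 0.31 for Cxcl1 and -0.88 to 0.28 for Ccl25, and for minocycline against control -0.85 to 0.30 for Ccl25. Cxcl14 against light exposure was also -0.11 with total library sizes and -0.028 from group means with a prior count of 0.5. Total library sizes moved the median of all genes to 0.24 for light exposure and -0.17 for minocycline against light exposure. Most members held under 100 counts in a library, which limits the precision of all single values.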
